A study of Mus musculus with 27 samples.

Results

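Primordial germ cells are the founders of sperm and eggs, and in the mouse a few cells of the posterior epiblast are set aside for this fate. Bmp4 from the extraembryonic ectoderm, together with Wnt3, induces them, and the transcriptional regulators Prdm1 (also called Blimp1), Prdm14 and Tfap2c (AP-2 gamma) then establish the germ cell program. Nanos3 encodes an RNA-binding protein that keeps migrating germ cells alive, Dppa3 (Stella) a chromatin-binding protein of oocytes, early embryos and early germ cells, Kit the receptor for stem cell factor, and Ifitm3 (Fragilis) a membrane protein of germ cell precursors that also takes part in antiviral defence. Several of these genes, Prdm14, Tfap2c and Dppa3 among them, are also active in naive embryonic stem cells, so their transcripts alone do not mark a germ cell.

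The 7 genes Prdm1, Prdm14, Tfap2c, Nanos3, Dppa3, Kit and Ifitm3 were taken by symbol from a table of 23604 genes in 19 mouse RNA libraries, and all 7 had a row. They were followed in the cell types between the naive and the primed state, because formative pluripotent cells are the ones held to be competent for germ cell induction. No library comes from cells induced towards germ cells, so the values describe the starting populations.

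All cells were labelled wild type. The libraries comprised naive mouse embryonic stem cells kept in 2i and Lif without feeders (mESCs, n = 2), epiblast-like cells made from them with Activin A and bFgf2 in 2D culture (EpiLCs, n = 2), and epiblast stem cells grown on inactivated mouse embryonic fibroblast feeders with Activin A, bFGF2 and the Wnt inhibitor XAV939 (EpiSCs, n = 2). Epiblastoids were mESCs placed in 3D Matrigel under the EpiLC condition and were sampled on days 2, 3 and 4 (1 library each). The study describes the day 4 cells as irregular colonies, after polarity was lost, with markers of epithelial-to-mesenchymal transition induced. Formative pluripotent stem cells (fPSCs) were derived in 3D Matrigel with Activin A, bFgf2 and XAV939 and comprised passage 1 (P1, 1 library), 7 long-term libraries (P10, P20, P30, CMT P11, 46C P24, BVSC P14 and ROSAmTmG P12) and 2 lines derived from E5.5 and E6.5 epiblast (P10, 1 library each). The study describes P1, P10, P20 and P30 as passages of the CMT line, which the labels do not name for them, and CMT P11 as cryopreserved cells. The long-term group therefore mixes passages and parental lines, BVSC cells carry reporters of Blimp1 and Stella and 46C cells a Sox1 reporter, and 4 of its libraries (CMT P11, 46C P24, BVSC P14, ROSAmTmG P12) belong to a second set of records with another library protocol. For 46C, BVSC and ROSAmTmG, the line and the set cannot be told apart. Histone marks and DNA methylation were available for fPSCs P10, and single fPSCs for 4 clones.

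The labelled states carried their markers. Summed over 8 naive genes, levels were 2912 to 3401 FPKM in mESCs, 322 to 670 FPKM in EpiLCs, 6.56 to 13.96 FPKM in EpiSCs and 1.39 to 2.78 FPKM in long-term fPSCs. Summed over 4 formative genes, they were 26.8 to 31.1 FPKM in mESCs, 835 to 894 FPKM in EpiLCs, 182 to 197 FPKM in EpiSCs and 562 to 801 FPKM in long-term fPSCs. FPKM values, fragments scaled by transcript length and library size, summed to between 307394 and 414727 per library, with 10034 to 10933 genes at 1 FPKM or more, and the number of reads behind them is unknown. Nothing in the labels says whether replicates came from separate cultures, so p-values measure only the spread between these libraries.

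The sequences upstream of 3 start sites are shown because the genes divided by promoter methylation in fPSCs P10, and because CpG sites, given in capitals, are the positions that methylation acts on. Each run holds the 250 bases before the first protein-coding start of the gene, 5′ to 3′ on the strand of the gene, read from the mm9 genome. The windows are chr10:44178555-44178804 (minus strand, Prdm1, inside the annotated span of that gene), chr1:13117245-13117494 (minus strand, Prdm14) and chr6:122576178-122576427 (plus strand, Dppa3).
Prdm1: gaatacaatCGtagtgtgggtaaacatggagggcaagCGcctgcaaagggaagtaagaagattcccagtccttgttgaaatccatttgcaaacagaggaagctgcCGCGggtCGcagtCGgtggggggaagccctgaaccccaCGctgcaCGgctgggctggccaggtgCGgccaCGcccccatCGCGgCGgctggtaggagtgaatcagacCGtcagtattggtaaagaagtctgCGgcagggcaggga
Prdm14: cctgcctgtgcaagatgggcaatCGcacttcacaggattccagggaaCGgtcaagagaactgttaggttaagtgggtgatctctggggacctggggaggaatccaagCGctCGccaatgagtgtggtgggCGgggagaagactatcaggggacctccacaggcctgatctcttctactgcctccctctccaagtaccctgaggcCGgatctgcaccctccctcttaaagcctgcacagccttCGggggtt
Dppa3: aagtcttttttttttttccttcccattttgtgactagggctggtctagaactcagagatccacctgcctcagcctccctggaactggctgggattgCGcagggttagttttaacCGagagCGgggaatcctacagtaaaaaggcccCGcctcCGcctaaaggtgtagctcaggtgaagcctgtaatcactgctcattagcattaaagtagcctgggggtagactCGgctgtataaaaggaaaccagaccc
The Prdm1 run held 15 CpG sites, and each of the 4 methylation windows over it was listed at 0. The Prdm14 run held 7 CpG sites with windows at 0.30 to 1, and the Dppa3 run 6 CpG sites with windows at 0.86 to 1.

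The transcriptional regulators were considered first. Prdm14 stood at 25.9 and 25.3 FPKM in the mESC libraries and nowhere else above 0.106 FPKM, its value in EpiSC replicate 2. EpiLCs gave 0.0564 and 0.0846 FPKM and EpiSC replicate 1 gave 0.0296 FPKM. The gene was listed at 0 in fPSCs P1, in 6 of the 7 long-term fPSC libraries and in the E5.5-derived line, with 0.000291 FPKM in 46C P24 and 0.0274 FPKM in the E6.5-derived line. The mESCs thus stood apart from every other library, and the other groups lay at or near 0.

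Tfap2c, the AP-2 family member of the germ cell and trophoblast lineages, stood at 23.4 and 19.4 FPKM in mESCs. It was 0.244 and 0.280 FPKM in EpiLCs and 2.79 and 3.47 FPKM in EpiSCs. The 7 long-term fPSC libraries ranged from 0.0726 FPKM (ROSAmTmG P12) through a median of 0.447 FPKM to 1.09 FPKM (P10). EpiSCs did not overlap EpiLCs or fPSCs, whereas the EpiLC values lay inside the fPSC range. In Epiblastoids, Tfap2c was 0.293 FPKM on day 2, 0.274 FPKM on day 3 and 6.02 FPKM on day 4, the highest value outside mESCs.

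Prdm1, a transcriptional repressor that also acts in endoderm and in plasma cells, was the most uneven of the regulators. It was 4.72 and 5.42 FPKM in mESCs, 0.273 and 0.185 FPKM in EpiLCs and 0.183 and 0.289 FPKM in EpiSCs. Long-term fPSCs ran from 0.0439 FPKM (ROSAmTmG P12) through a median of 0.661 FPKM to 3.97 FPKM (46C P24), and BVSC P14 gave 2.78 FPKM. The fPSC range therefore enclosed both EpiLCs and EpiSCs but did not reach mESCs. Epiblastoids held 0.243 FPKM on day 2, 0.0601 FPKM on day 3 and 6.17 FPKM on day 4, a day 4 value above both mESC libraries.

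Among the effectors and surface proteins, Dppa3 had the largest spread within mESCs, with 56.4 and 194 FPKM. It was 0.958 and 1.15 FPKM in EpiLCs and listed at 0 in both EpiSC libraries. In Epiblastoids it was 1.42 FPKM on day 2, 0.224 FPKM on day 3 and listed at 0 on day 4, and fPSCs P1 held 0.123 FPKM. Of the long-term fPSCs, 4 of 7 libraries were listed at 0 and the highest, 46C P24, was 0.0319 FPKM. EpiLCs and day 2 Epiblastoids were thus the only samples outside mESCs near 1 FPKM.

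Nanos3 was low throughout, at 3.34 and 4.99 FPKM in mESCs. EpiLCs gave 0.550 and 0.148 FPKM, EpiSCs 0.305 and 0.0759 FPKM, and long-term fPSCs from 0 (P20) through a median of 0.243 FPKM to 0.581 FPKM (CMT P11). The ranges of EpiLCs, EpiSCs and long-term fPSCs overlapped, and both mESC libraries lay above them.

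Kit stood at 69.0 and 67.0 FPKM in mESCs, 2.15 and 1.505 FPKM in EpiLCs and 1.52 and 1.45 FPKM in EpiSCs. Of the 7 long-term fPSC libraries, 6 lay between 2.49 FPKM (P20) and 3.23 FPKM (CMT P11), and 46C P24 alone reached 14.8 FPKM. The E5.5- and E6.5-derived lines gave 7.06 and 8.16 FPKM. Every long-term fPSC library was above both EpiLC and both EpiSC libraries. Epiblastoids held 1.32 FPKM on day 2, 2.31 FPKM on day 3 and 18.8 FPKM on day 4.

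Ifitm3 was the only 1 of the 7 genes above 10 FPKM in every library. It was 181 and 255 FPKM in mESCs, 61.4 and 65.0 FPKM in EpiLCs and 62.5 and 70.9 FPKM in EpiSCs. The long-term fPSCs split by set of records, with 39.5, 68.2 and 61.7 FPKM at P10, P20 and P30 and 15.5, 14.01, 19.8 and 16.3 FPKM in CMT P11, 46C P24, BVSC P14 and ROSAmTmG P12. The Epiblastoids ran from 67.0 FPKM on day 2 to 42.1 FPKM on day 3 and 16.8 FPKM on day 4. Ifitm1, Ifitm2 and Ifitm3 are neighbouring genes of similar sequence, so how fragments were divided among them is uncertain.

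**Figure D1:**
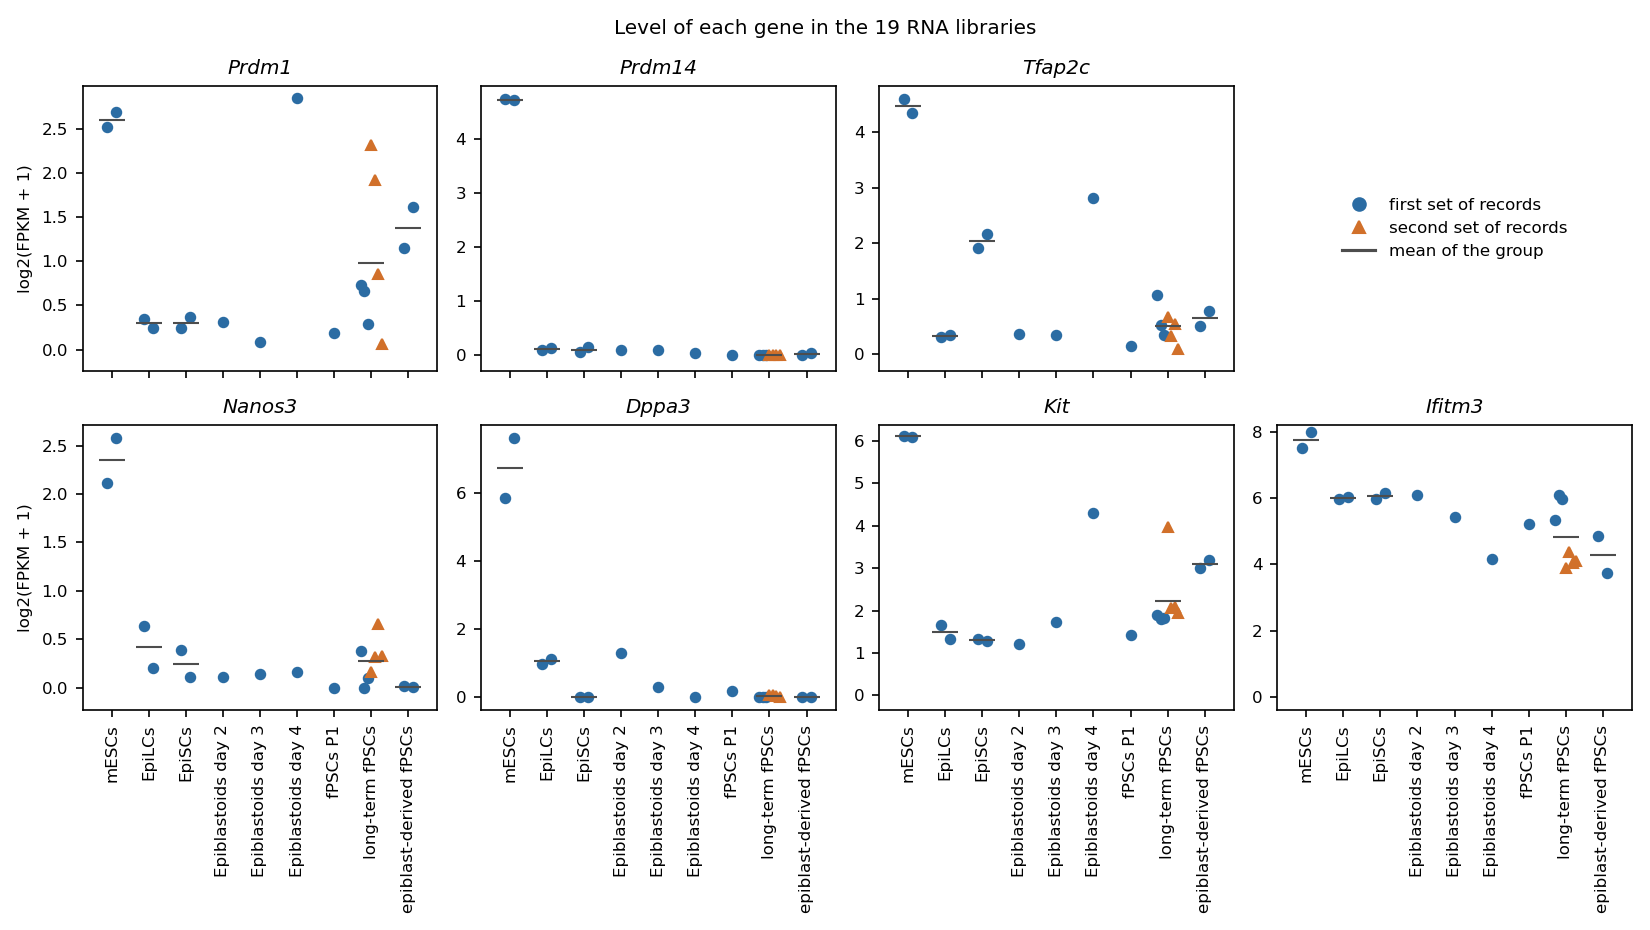
Level of each of the 7 genes, as log2(FPKM + 1), in the 19 RNA libraries, 1 point per library, with the group mean as a bar where a group has more than 1 library. The mESC points stand above all others for 6 of the genes, while Prdm1 is as high in Epiblastoids on day 4 and Ifitm3 in long-term fPSCs divides by set of records (circles and triangles).

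Differences were tested with limma on log2(FPKM + 1) over 12513 genes, and a gene was called at a Benjamini-Hochberg adjusted p under 0.05 with a fold of at least 1.5. Against mESCs, 6 of the 7 genes fell in EpiLCs, where 17.4% of all genes tested were called lower and 12.2% higher (29.6% in either direction). In EpiSCs 6 of 7 fell, beside 24.7% of all genes lower and 23.1% higher (47.8% in either direction), and in long-term fPSCs 7 of 7 fell, beside 23.0% of all genes lower and 17.3% higher (40.3% in either direction). Prdm14, Nanos3 and Dppa3, 3 of the 7, passed the filter on low values (1 FPKM in 2 libraries) only with the help of their mESC level and so had to differ, and these counts are no support. Of the 4 genes whose entry did not depend on mESCs, 3 fell in EpiLCs, 3 in EpiSCs and 4 in long-term fPSCs.

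In long-term fPSCs against mESCs, Tfap2c differed by -3.96 on this scale (SE 0.21, adjusted p = 6.5e-09) and Kit by -3.88 (SE 0.46, adjusted p = 1.7e-05). Ifitm3 differed by -2.92 (SE 0.55, adjusted p = 7.7e-04) and Prdm1 by -1.62 (SE 0.47, adjusted p = 0.014). The differences of the 3 genes that had to differ are given with no test, -6.71 for Dppa3, -4.73 for Prdm14 and -2.07 for Nanos3. The difference of Ifitm3 missed the threshold in EpiLCs (-1.75, SE 0.68, adjusted p = 0.069) and in EpiSCs (-1.68, SE 0.68, adjusted p = 0.057). Ifitm3 was called in both when fitted with only the 2 groups compared (adjusted p = 0.0037 and 9.4e-04), with the replicate block (adjusted p = 0.0012 and 7.7e-04) or with 3 groups without the block (adjusted p = 8.8e-04 and 5.7e-04). The 3 comparisons share the same 2 mESC libraries. Prdm1 lost its call in fPSCs without mESC replicate 1 (adjusted p = 0.076) and without mESC replicate 2 (adjusted p = 0.106), and in EpiLCs without mESC replicate 2 (adjusted p = 0.064) or EpiLC replicate 2 (adjusted p = 0.052).

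Long-term fPSCs differed from EpiLCs in 1 of the 7 genes, Dppa3, a share close to the 13.8% of all genes called in either direction. Dppa3 fell, with a difference of -1.02 on the log2(FPKM + 1) scale (SE 0.30, adjusted p = 0.037). That call was lost when 8 of the 9 libraries compared, all but 46C P24, were left out in turn. The other 6 genes missed the threshold, with 95% intervals of the difference from -0.35 to 1.71 for Prdm1, -0.28 to 0.08 for Prdm14, -0.27 to 0.63 for Tfap2c, -0.53 to 0.25 for Nanos3, -0.25 to 1.73 for Kit and -2.35 to 0.02 for Ifitm3. For Prdm1, Kit and Ifitm3 these intervals include differences of more than 1 on the log2 scale, so the libraries do not show that the levels are alike.

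Tfap2c differed between EpiSCs and both EpiLCs and long-term fPSCs. It was 1.70 higher in EpiSCs than in EpiLCs (SE 0.26, adjusted p = 2.4e-04), where 20.4% of all genes were called higher and 35.9% in either direction, and fell in long-term fPSCs against EpiSCs with a difference of -1.53 (SE 0.21, adjusted p = 9.7e-05), where 32.3% were called. Both comparisons use the same 2 EpiSC libraries. EpiSCs were grown on feeders, and 14 fibroblast markers summed to 655 to 773 FPKM in EpiSCs, with 10 to 11 of them at 1 FPKM or more, against 15.4 to 19.2 FPKM in EpiLCs and 4.66 to 9.68 FPKM in long-term fPSCs. Their part in the Tfap2c level was not tested. Dppa3 fell in EpiSCs against EpiLCs with a difference of -1.04 (SE 0.38, adjusted p = 0.046), a call that was lost without any 1 of the 4 libraries. No further gene was called in these comparisons, although Kit passed in fPSCs against EpiSCs once 46C P24 was left out (0.62 higher) and Ifitm3 once P20 (-1.45) or P30 (-1.43) was left out.

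**Figure D2:**
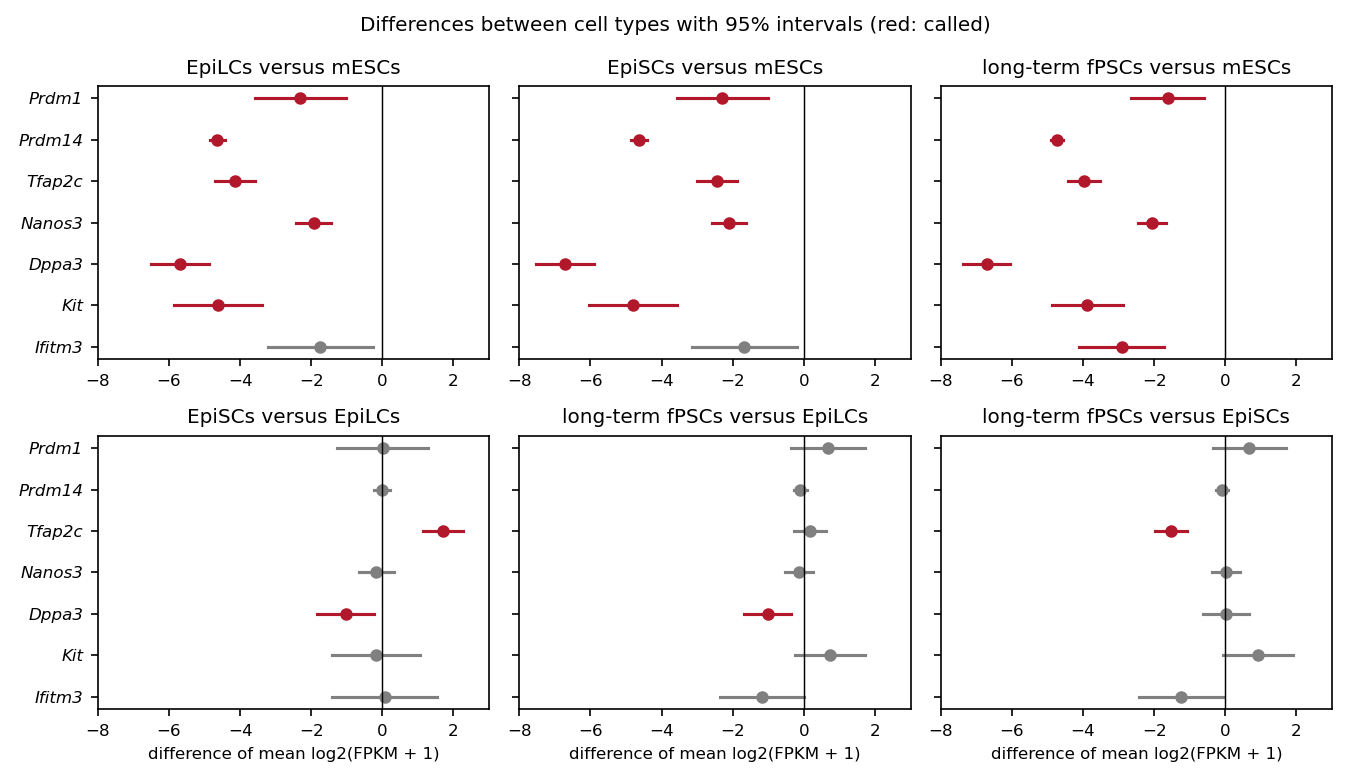
Difference of the mean log2(FPKM + 1) between cell types for each gene (points) with its 95% interval from limma (bars), called genes in red. Against mESCs all points lie below 0, while among EpiLCs, EpiSCs and long-term fPSCs only Tfap2c and Dppa3 are red. Prdm14, Nanos3 and Dppa3 had to differ from mESCs through the filter, so their red there is no support.

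Within the long-term fPSCs, the 4 libraries of the second set were compared with P10, P20 and P30, where 8.93% of the 10930 genes tested were called lower and 20.8% higher, 29.7% in all, with a median over all genes of 0.19. Prdm14, Tfap2c, Nanos3 and Dppa3 did not pass the filter there. Ifitm3 fell in the second set with a difference of -1.70 (SE 0.19, adjusted p = 4.7e-04), with no overlap between sets. CMT P11, the 1 library of the second set from the line of P10, P20 and P30, was 15.5 FPKM, and its cryopreservation and the set cannot be told apart. Prdm1 (0.73 higher, SE 0.49, adjusted p = 0.26) and Kit (0.67 higher, SE 0.46, adjusted p = 0.27) were not called. Prdm1 gained a call without ROSAmTmG P12 (1.13 higher), the library where it was lowest. It reached 1 FPKM only in 46C P24 (3.97 FPKM) and BVSC P14 (2.78 FPKM), both of the second set. Prdm1 thus entered this fit only through the second set, and that call is no support.

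The epiblast-derived lines were compared with P10, P20 and P30 in a fit of 12385 genes, of which 1.82% were called in either direction. The study describes P10, P20 and P30 as passages of the CMT line, so epiblast origin and line cannot be told apart. The spread among P10, P20 and P30 is between passages and not between lines. Of the 7 genes, 3 were called, 2 higher beside 1.04% of all genes and 1 lower beside 0.783%. Kit rose by 1.26 (SE 0.16, adjusted p = 0.0035), with 7.06 and 8.16 FPKM against 2.49 to 2.74 FPKM. Prdm1 rose by 0.82 (SE 0.18, adjusted p = 0.049), with 1.22 and 2.05 FPKM against 0.225 to 0.661 FPKM. Ifitm3 fell by 1.51 on the log2(FPKM + 1) scale (SE 0.32, adjusted p = 0.044), with 27.8 and 12.4 FPKM against 39.5 to 68.2 FPKM. None of the 3 overlapped, which adds no support, since they were picked by their call and the share over all genes was not counted. The Kit call held without each library in turn, whereas Prdm1 lost its call without P10, P20, P30 or the E6.5-derived line, and Ifitm3 without P20, P30 or the E6.5-derived line. In the second set of fPSCs, Prdm1 ranged from 0.0439 to 3.97 FPKM and Ifitm3 from 14.01 to 19.8 FPKM. Kit there was 14.8 FPKM in 46C P24 and 2.82 to 3.23 FPKM in the other 3 libraries.

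Prdm1 and Kit are also expressed in early endoderm, so 12 markers of visceral and definitive endoderm were read beside them. Their summed level was 490 FPKM in day 4 Epiblastoids, 426 FPKM in 46C P24, 235 FPKM in the E5.5-derived and 153 FPKM in the E6.5-derived line, and between 11.6 FPKM (P30) and 105 FPKM (CMT P11) in the other 6 long-term fPSC libraries. In day 3 Epiblastoids it was 3.52 FPKM. In the 4 libraries of highest sum, 7 to 8 of the 12 markers reached 1 FPKM. The count was 7 in CMT P11 and P20, 6 in P10 and BVSC P14, 3 in P30 and 2 in ROSAmTmG P12. Most of the sum in the 4 libraries of highest sum came from Cer1 (295, 203, 124 and 56.4 FPKM) and Foxa2 (52.8, 81.9, 68.0 and 58.8 FPKM). Foxa2 ranged from 5.24 FPKM (P30) to 44.3 FPKM (P10) in the other 6 long-term fPSC libraries. Sox17, an endoderm factor that is also used in germ cells of some mammals, was 68.7, 50.6, 12.7 and 11.6 FPKM in the 4 libraries of highest sum and 13.1 FPKM in CMT P11. Gata6, a factor of primitive endoderm, was 38.4, 21.8, 6.499 and 6.07 FPKM in those 4 libraries and at most 3.03 FPKM in any other. Those 4 libraries were also the 4 highest for Kit outside mESCs. For Prdm1 they were 4 of the 5 highest outside mESCs, since BVSC P14 had 2.78 FPKM of Prdm1 with an endoderm sum of 59.5 FPKM. BVSC cells carry a Blimp1 reporter, whose part in that Prdm1 value was not tested. Primitive streak markers, 7 in all, summed to 778 FPKM in day 4 Epiblastoids, 297 and 281 FPKM in the E5.5- and E6.5-derived lines and 217 FPKM in 46C P24, against 96.1 to 185 FPKM in the other long-term fPSCs. The part of endoderm or streak cells in the Prdm1 and Kit levels was not tested. In bulk libraries more cells of a type and more RNA per cell cannot be told apart.

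**Figure D3:**
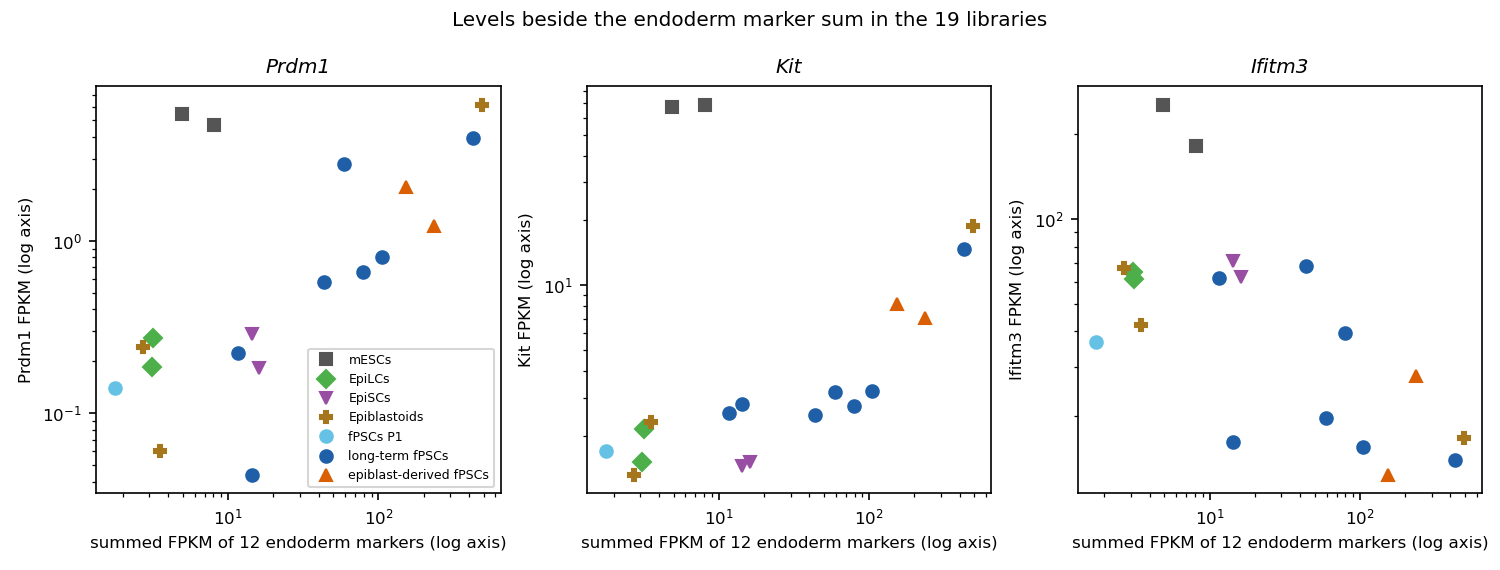
FPKM of Prdm1, Kit and Ifitm3 against the summed FPKM of 12 endoderm markers, both on log axes, 1 point per library, coloured by cell type. Outside mESCs, the points of Kit above 5 FPKM all lie at sums of 153 FPKM or more, and Ifitm3 does not rise with the sum.

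Over the 17 libraries without mESCs, Prdm1 and Kit had a Pearson r of 0.89 on log2(FPKM + 1), and Kit and Ifitm3 an r of -0.74. Prdm14 and Nanos3 had an r of 0.95 over all 19 libraries and -0.03 without mESCs, and Tfap2c and Dppa3 0.79 and -0.32. These values are descriptions, since libraries of a cell type are not independent and the 2 sets were made with different protocols. Among the 7833 genes that reached 10 FPKM in any library, the genes most like each member by r over the 19 libraries were Bhmt, Lrrc31 and Trpm1 for Prdm14 (each above 0.99), H2-M5, Krt42 and Calcoco2 for Dppa3 (0.99 each), H2-M6-ps, Osm and H2-M5 for Nanos3 (0.96 to 0.97), and Epha4 and Lama1 for Tfap2c (0.96 each). Kit was most like Grhl3, Lpar1 and Jakmip1 (0.92 to 0.96), Prdm1 most like Kit, Acvr1b and Gsc (0.86 to 0.89), and Ifitm3 most like Rab4b, Mavs and Nr4a1 (0.90 each).

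Epiblastoids of day 4 and day 3 had 1 library each, which allows no test. On the scale of FPKM + 1, 3 of the 4 genes compared were at least 2-fold higher on day 4 (Prdm1, Tfap2c and Kit) and 1 was at least 2-fold lower (Ifitm3), beside 7.85% of genes higher and 8.22% lower. Prdm1 and Tfap2c were under 1 FPKM on day 3 and entered the comparison, which required 1 FPKM on either day, only through day 4, so their direction was fixed and the count is a description. Prdm14 and Dppa3 did not share that pattern, being 0.0207 FPKM and listed at 0 on day 4. Ifitm1, a paralog of Ifitm3, went the other way, from 1.79 FPKM on day 3 to 84.5 FPKM on day 4. All 7 streak markers and 7 of the 8 endoderm markers compared were at least 2-fold higher as well.

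The signals that induce germ cells were read from a list of 24 ligands, receptors and mediators, of which 19 were tested. In long-term fPSCs 8 of the 19 rose and none fell against EpiLCs, with a median difference of 0.83 beside 0.01 over all genes, where 5.66% of genes rose and 8.15% fell. The largest rises were those of the mesoderm factors T (3.87, SE 0.43, adjusted p = 3.9e-05) and Eomes (3.37, SE 0.31, adjusted p = 6.7e-06) and of the ligand Wnt3 (2.61, SE 0.32, adjusted p = 9.2e-05). In EpiLCs 13 to 14 of the 24 genes reached 1 FPKM, against 16 to 19 in long-term fPSCs. Some of the 19 may have passed the filter only through fPSCs or EpiSCs, so the count against EpiLCs is a description. Against EpiSCs 3 rose and 3 fell, beside 13.3% and 19% of all genes. Bmp4, the inducing ligand, fell in fPSCs against EpiSCs with a difference of -1.02 (SE 0.19, adjusted p = 0.0014), at 0.611 to 1.42 FPKM against 2.61 to 2.63 FPKM. The EpiSC libraries contained feeders, whose part in the Bmp4 level was not tested. T, Eomes, Wnt3 and Mixl1 are also on the streak marker list, which summed to 96.1 to 217 FPKM in long-term fPSCs and 5.07 to 9.46 FPKM in EpiLCs.

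Of 25 transcriptional and chromatin partners, 1 rose and 3 fell in long-term fPSCs against EpiLCs, near the 5.66% of all genes that rose and the 8.15% that fell, with a median of 0.03. The riser was Nanog (2.90, SE 0.17, adjusted p = 8.8e-08), and the genes that fell were the naive factors Klf2 (-1.43, SE 0.26, adjusted p = 0.0023) and Esrrb (-1.38, SE 0.21, adjusted p = 6.1e-04) and the DNA methyltransferase gene Dnmt3a (-1.99, SE 0.35, adjusted p = 0.0019). Against EpiSCs 7 rose and 3 fell, beside 13.3% and 19% of all genes, led by Otx2 (2.26 higher, SE 0.29, adjusted p = 6.0e-05), which restrains entry into the germ line.

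Of 12 surface and marker genes of germ cells, none rose and 4 fell in long-term fPSCs against EpiLCs, beside 5.66% and 8.15% of all genes, with a median of -0.37. They included Dnd1, a partner of Nanos proteins (-2.12, SE 0.21, adjusted p = 1.2e-05), the adhesion gene Pecam1 (-1.74, SE 0.12, adjusted p = 5.9e-07) and the alkaline phosphatase gene Alpl (-1.70, SE 0.30, adjusted p = 0.0018). In fPSCs P10 Dnd1 (0.280 FPKM) and Pecam1 (0.146 FPKM) were under the filter of 1 FPKM. Both may have entered through mESCs or EpiLCs, so the count of surface and marker genes is a description. Itgb3, an integrin used to sort induced germ cells, differed by -3.67 in fPSCs against EpiSCs and passed the filter only through EpiSCs, at 0 to 0.137 FPKM against 10.2 and 14.3 FPKM in the feeder-containing EpiSCs.

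Genes of later germ cells were present in EpiLCs and nearly absent from long-term fPSCs. Of 14 on the list, 10 were tested, and 6 rose and 3 fell in EpiLCs against mESCs, beside 12.2% and 17.4% of all genes. All 10 passed the filter on low values only with mESCs or EpiLCs, so their counts are a description. In long-term fPSCs 9 of the 10 fell and none rose against EpiLCs, beside 8.15% and 5.66% of all genes, with a median of -2.41, and none was called in either direction against EpiSCs. Mael, a piRNA pathway gene, was 18.7 and 26.3 FPKM in EpiLCs, 15.3 FPKM in Epiblastoids on day 2, 6.97 FPKM on day 3 and 5.60 FPKM in fPSCs P1, and was listed at 0 in all 7 long-term fPSC libraries. Ddx4, the germ cell RNA helicase, was 5.90 and 6.66 FPKM in EpiLCs, 2.69 FPKM in fPSCs P1 and at most 0.0602 FPKM in long-term fPSCs. Rhox5, an X-linked homeobox gene, was 247 and 265 FPKM in EpiLCs, 45.3 FPKM in fPSCs P1 and 0.0285 to 0.795 FPKM in long-term fPSCs. Like Dppa3, these 3 genes were higher in fPSCs P1 than in every long-term library.

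The paralogs were read because names and sequences are shared within families. Of 16, 9 were tested, and 4 fell and none rose in long-term fPSCs against EpiLCs, beside 8.15% and 5.66% of all genes. Dppa4 and Dppa2, chromatin factors that share only the gene name with Dppa3, differed by -5.55 and -4.94, and Dppa5a, an RNA-binding protein of naive cells, by -8.27. In fPSCs P10 they were at 0.220, 0.737 and 0 FPKM, under the filter of 1 FPKM. They may have entered through mESCs or EpiLCs, so the count of paralogs is a description. Ifitm2 was high in every library, between 128 and 445 FPKM, and in the second set of fPSCs it kept to 165 to 175 FPKM while Ifitm3 was at 14.01 to 19.8 FPKM.

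Promoters were read in fPSCs P10 from 1 track per mark, as mean values around the first protein-coding start site of 22085 genes, with no other cell type to compare. Methylation is the mean of the methylated fractions of 100-bp windows within 1 kb of the start, and the reads behind each window are not given. The genes divided in 3. Prdm1 had a mean fraction of 0.0218 (17 windows, 0 to 0.14), Tfap2c 0.0246 (13 windows, 0 to 0.17) and Kit 0.0700 (14 windows, 0 to 0.78). Ifitm3 had 0.576 (14 windows, 0 to 1), with its least methylated windows next to the start. Prdm14 had 0.739 (15 windows, 0.30 to 1), Nanos3 0.850 (8 windows, 0.62 to 1) and Dppa3 0.922 (13 windows, 0.75 to 1). The median over all promoters was 0.355, and over promoters of genes under 1 FPKM in the P10 library it was 0.827.

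The 3 hypomethylated promoters were those of genes at low level in P10, 0.661 FPKM for Prdm1, 1.09 FPKM for Tfap2c and 2.74 FPKM for Kit, while Ifitm3, at 39.5 FPKM, was the most highly expressed. Among promoters of genes under 1 FPKM, 9.21% had a fraction under 0.1, against 33.5% among genes at 10 FPKM or more. The low stretch was widest at Tfap2c, where 45 of 74 windows within 5 kb were under 0.1, against 22 of 71 at Prdm1, 16 of 54 at Kit and 1 of 51 at Dppa3. The ratio of observed to expected CpG sites within 500 bp of the start was 0.88 for Prdm1, 0.69 for Tfap2c and 0.68 for Kit, and 0.50 for Prdm14, 0.44 for Dppa3, 0.35 for Ifitm3 and 0.19 for Nanos3, with a median of 0.55 over all promoters.

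H3K4me3 marks active and poised promoters, and H3K27me3 is the mark of Polycomb repression. Within 5 kb of the start, mean H3K4me3 was highest at Tfap2c, with 4.06 RPKM (326 reads, 97.8th percentile of all promoters), followed by Prdm1 with 2.31 RPKM (186 reads, 82.1st percentile) and Kit with 2.16 RPKM (174 reads, 79.2nd percentile). It was lowest at Prdm14, with 0.820 RPKM (66 reads, 40.7th percentile), with Dppa3 at 1.14 RPKM and Nanos3 at 1.27 RPKM. Reads near Nanos3 lay mostly upstream, its highest bin being 3700 bp before the start, and within 1 kb its mean fell to 0.186 RPKM. For Prdm1 and Kit the highest bins lay 403 and 610 bp after the start. The order depended on the window, since within 1 kb Prdm1 (7.21 RPKM) and Kit (6.47 RPKM) were above Tfap2c (4.66 RPKM, 69.7th percentile).

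H3K27me3 was also highest at Tfap2c, with 4.02 RPKM (625 reads, 99.1st percentile), where 93 of 100 bins held reads. Kit followed with 1.64 RPKM (91.1st percentile), Prdm1 with 1.39 RPKM (88.6th percentile), Dppa3 with 1.18 RPKM (85.8th percentile) and Prdm14 with 1.03 RPKM (82.8th percentile). Ifitm3 had 0.701 RPKM and Nanos3 0.566 RPKM, beside a median of 0.379 RPKM over all promoters and 0.547 RPKM over promoters of genes under 1 FPKM. Within 1 kb Tfap2c again had the highest mean, 2.80 RPKM, followed by Dppa3 with 1.84 RPKM and Prdm1 with 1.51 RPKM. Prdm14 (1.29 RPKM) was above Kit (1.06 RPKM) within 1 kb. All 7 genes had reads of both marks within 5 kb. Nanos3 had the fewest bins with reads, 46 of 100 for H3K4me3 and 50 of 100 for H3K27me3. Tfap2c, Prdm1 and Kit stood apart by a methylated fraction under 0.1 within 1 kb, measured over a mixture of cells. Each was also above the other members in mean H3K4me3 in both windows. Ifitm3 came next, with 1.77 RPKM within 5 kb and 2.74 RPKM within 1 kb. Within 2 kb the methylated fraction was 0.0217 at Tfap2c but 0.129 at Prdm1 and 0.253 at Kit. A few bins of very high signal widened the spread over promoters, so the z-scores were small (0.10 for H3K4me3 and 0.17 for H3K27me3 at Tfap2c) and percentiles are given.

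The AP-2 letters GCCNNNGGC occurred on either strand of the 250 bases before the start of Kit and Nanos3 and of 14.9% of all promoters, and the Prdm14 letters GGTCTCTAA and the T-box letters TCACACCT in none of the 7 genes (0.190% and 0.955% of all promoters). These matches are descriptions of the letters only. Among the gene lists, all 13 later germ cell genes with an annotated promoter had a fraction over 0.5 (0.667 to 0.974), and so did 2 of the 24 inducing signals and 3 of the 25 partners, beside 42.0% of all promoters and 67.7% of promoters of genes under 1 FPKM.

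**Figure D4:**
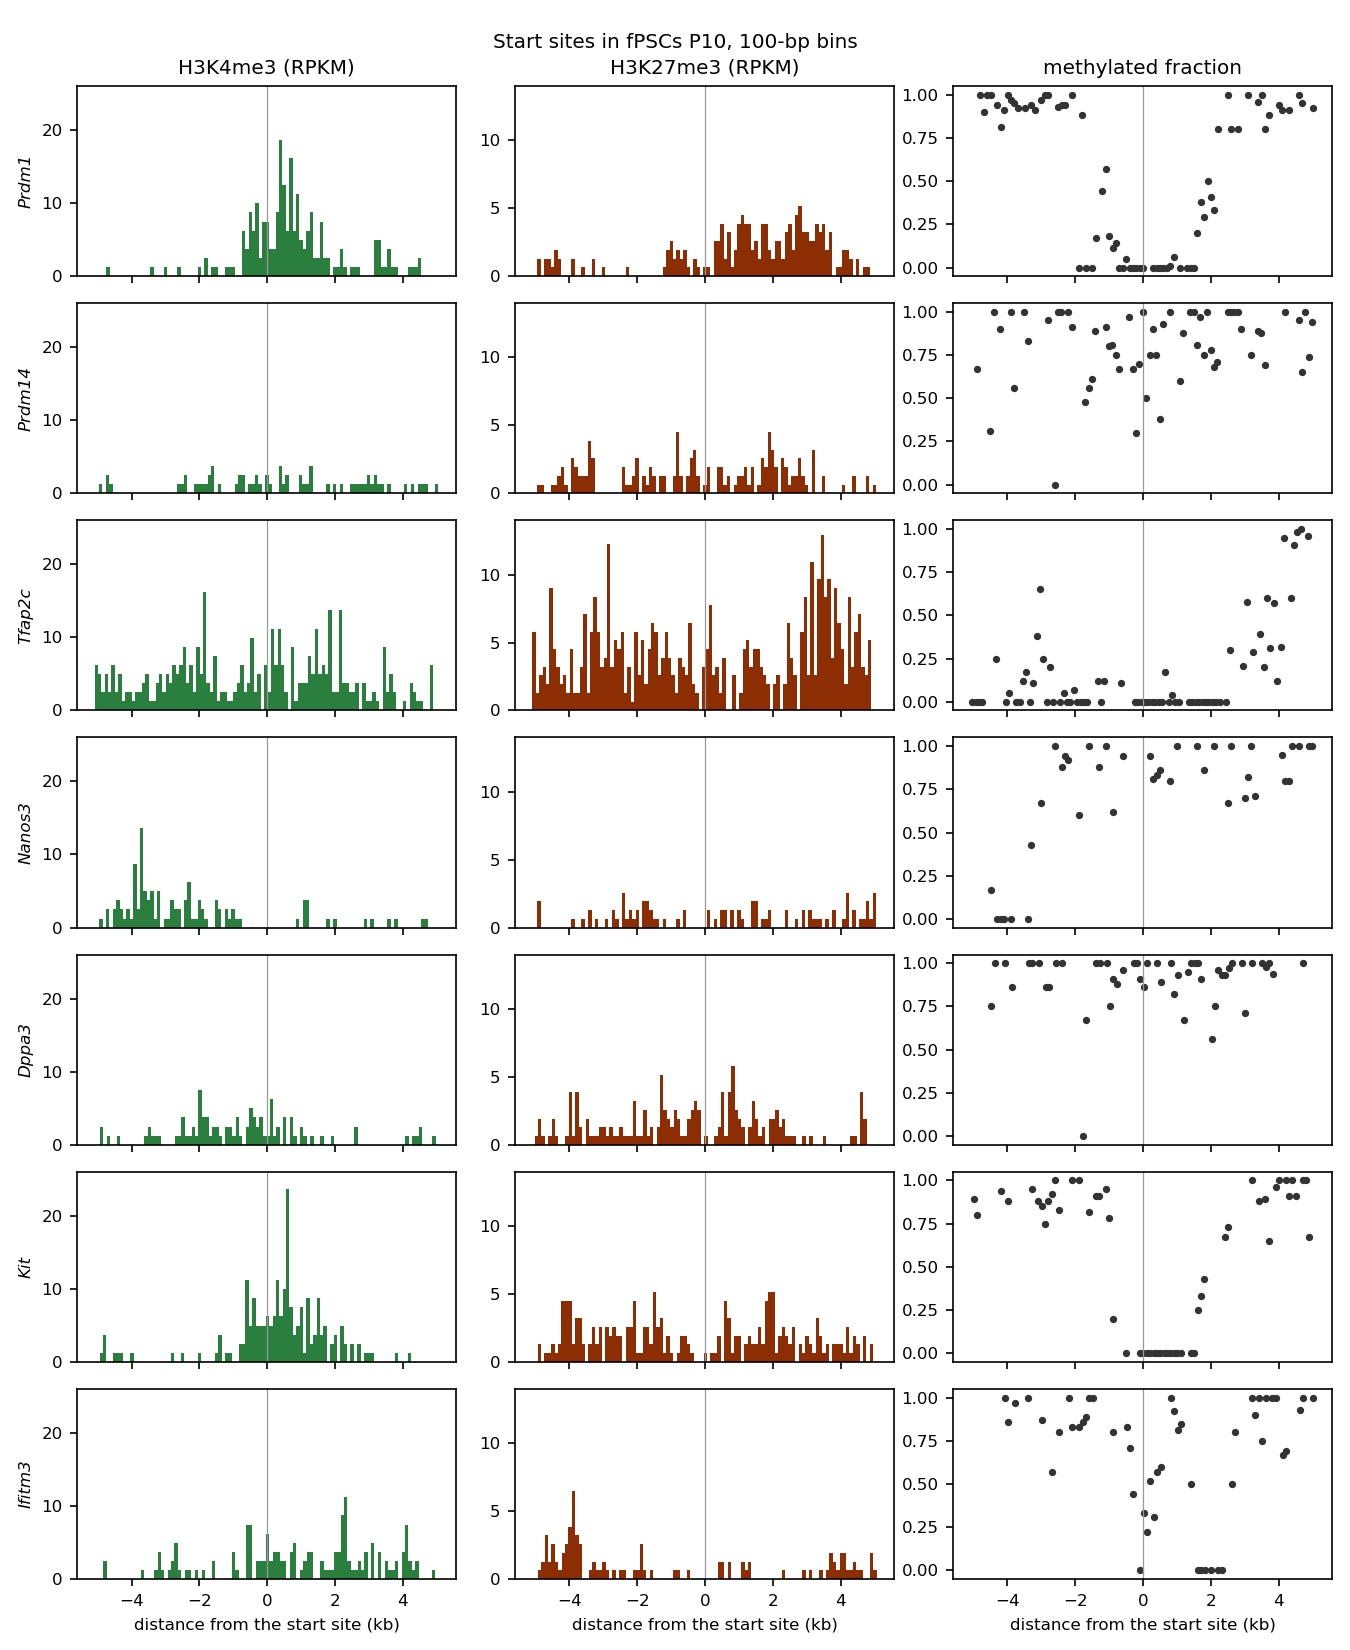
H3K4me3 and H3K27me3 (RPKM, bars) and methylated fraction (points) in 100-bp bins against the distance from the start site, for each of the 7 genes in fPSCs P10. Points at or near 0 surround the starts of Prdm1, Tfap2c and Kit, and Tfap2c has reads of both marks across the 10 kb shown.

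Single fPSCs of 4 clones gave 181 cells with at least 500 genes, at a median of 19078 to 33883 counts per cell in a clone, and intervals cover counting error only. Kit had a count in 24 cells (13.3%, 95% Wilson interval 9.07% to 18.97%) and Ifitm3 in 38 cells (21.0%, 15.7% to 27.5%). Both occurred in every clone, Kit in 6.52% (clone 3) to 20.0% (clone 2) of cells and Ifitm3 in 17.4% (clone 1) to 28.9% (clone 2), with overlapping intervals. Prdm1 had a count in 5 cells (2.76%, 1.19% to 6.30%), 3 of clone 1 and 2 of clone 3. None of the 45 cells of clone 2 or the 44 cells of clone 4 had a count, which allows shares of cells with a count of up to 6.67% and 6.82% and sets no limit on cells that express the gene. Nanos3 had 1 count in 1 cell of clone 1 and was not analysed in clones 3 and 4. Prdm14, Tfap2c and Dppa3 were not analysed in single cells.

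The 5 cells with Prdm1 held no count of Kit or Ifitm3, and 2 cells held both Kit and Ifitm3. Cells with Kit had a median of 60259 counts against 22892 in cells without it, and cells with Ifitm3 44827 against 21985, so the shares rise with depth. Pou5f1, at 493 FPKM in the P10 bulk library, had a count in 17 of the 181 cells (9.39%), while Dnmt3b had one in 180 and Otx2 in 121. A missing count is therefore no evidence that a cell lacked the transcript.

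**Figure D5:**
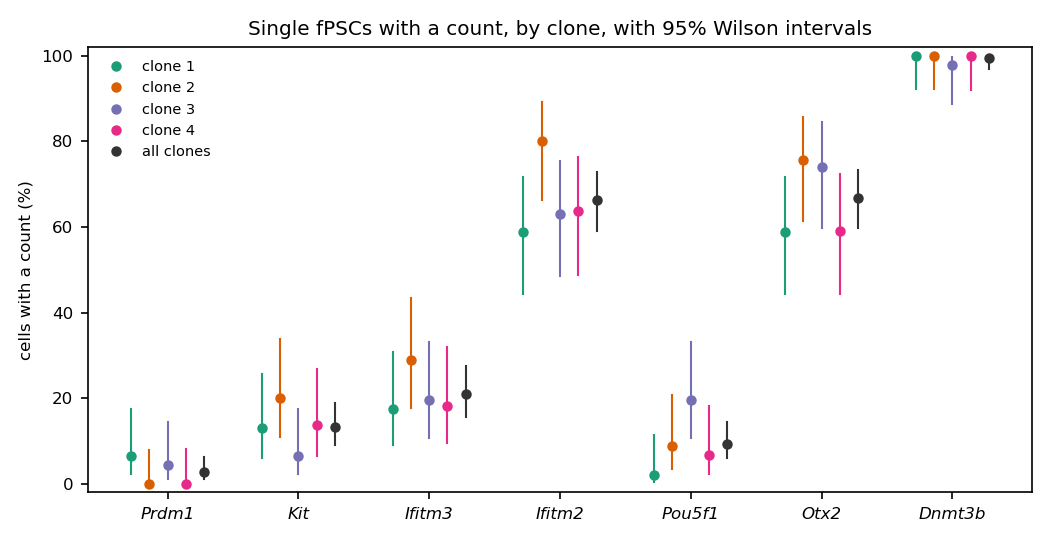
Percent of single fPSCs with at least 1 count of each gene, by clone and over all clones, with 95% Wilson intervals, in cells with at least 500 genes. Kit and Ifitm3 lie at 6.52% to 28.9% in each clone, below the 97.8% to 100% of Dnmt3b, and Pou5f1 lies at 2.17% to 19.6%.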

How the data were processed

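RNA of 19 libraries, histone marks and DNA methylation of fPSCs P10 and single fPSCs were measured. The authors deposited FPKM values per gene without read counts, so depth is unknown for them. The study names TopHat2 2.1.1 and Cufflinks 2.1.1 for the RNA values and Bowtie2 2.2.2 for the histone marks. For H3K4me3 and H3K27me3 the authors deposited RPKM signal in 100-bp bins of mm9, in which bins without reads are not listed. A single read was worth 1.243 RPKM for H3K4me3 and 0.6439 RPKM for H3K27me3 (100% and 99.9% of checked values whole within 0.011 RPKM). Methylation was deposited as a fraction per 100-bp window, with no coverage. The labels give replicate samples for each mark and for methylation. The study says that replicates of the histone marks were combined for later steps, but neither kind of file says whether replicates were pooled. Single-cell values were deposited as raw counts. No column of fold changes was used.

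From these, log2(FPKM + 1) was compared with limma 3.58.1 (trend) in R 4.3.3, over genes at 1 FPKM or more in 2 libraries, in 1 fit of mESCs, EpiLCs, EpiSCs and long-term fPSCs, in a fit of the first record set for the epiblast-derived lines, and in a fit of the 7 long-term fPSC libraries for the record sets. The adjusted p-values in the text are Benjamini-Hochberg values from these limma fits over all genes tested. The fits were tested on simulated data. Promoter means covered 5 kb (marks) or 1 kb (methylation) on each side of the start, read with pysam 0.24.0 and Python 3.11.15 from the mm9 sequence and annotation, where Tfap2c was matched by an older symbol. Cells with at least 500 genes were kept, and shares carry 95% Wilson intervals. A share of 0 was given the limit of 3 counts.

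Genes named besides the 7 were, per list and comparison, up to 3 called genes each way with the largest differences, and the 3 genes of highest r with each member. An item that these rules name is not reported here. The levels of Sox17, Gata6, Cer1, Foxa2, Ifitm1, Ifitm2 and Pou5f1 were chosen after their values were seen. The members and gene lists were chosen with earlier results of these data known. Of 23608 rows, 4 were dropped because 2 names were listed 2 times. In the single-cell table of clones 3 and 4, 1 cell name was listed 2 times. Alternatives were the pseudocount, the filter, the groups in the fit, the record set, a replicate block, the window around starts, and leaving out each library.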

Additional observations from a re-analysis of the deposited data

Results flagged for a closer look

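Among the 7 long-term fPSC libraries, Kit was 14.8 FPKM in 46C P24, so far from the other 6 (2.49 to 3.23 FPKM) that its gap took up 0.94 of the whole range, above Dixon's 95% critical value. That library also had the highest endoderm marker sum of the 7, 426 FPKM, and their relation was not tested. Prdm14 was 0.000291 FPKM in 46C P24 and listed at 0 in the other 6, which is a gap of the whole range at a level close to 0. By chance about 1 group in 20 stands out in this way.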

How the results depend on the processing

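Of 586 differences of the 7 genes recomputed under an alternative, 539 kept their call and direction, 33 lost and 14 gained a call, and no called difference changed sign, while 15 uncalled ones did. Genes of the 7 called between EpiSCs and EpiLCs went from 2 to 1 without the filter, with only the compared groups, with the replicate block and with 3 groups without the block (Dppa3 lost). Between fPSCs and EpiLCs the 1 call became 2 with a pseudocount of 0.1 (Prdm14, -0.76) and 0 without the filter, with only the compared groups or with the first record set. Between fPSCs and EpiSCs 1 became 2 with a pseudocount of 0.1 (Prdm14) or the second record set (Ifitm3). For the epiblast-derived lines 3 became 1 without the filter, where all called genes fell from 226 to 96. All genes called between fPSCs and EpiLCs rose from 1728 to 3178 with the first and 2648 with the second record set. Promoters of the 7 under 0.1 fell from 3 to 1 within 2 kb.

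Leaving out 1 library at a time gave 3 to 6, 4 to 6 and 4 to 7 called members against mESCs (EpiLCs, EpiSCs, fPSCs), where Prdm14 and Nanos3 fell below the filter without a mESC library. It gave 1 to 1 between EpiSCs and EpiLCs, 0 to 1 between fPSCs and EpiLCs, 1 to 2 between fPSCs and EpiSCs, 1 to 3 for the epiblast-derived lines and 1 to 2 between record sets. Over all genes the counts were 2291 to 3019, 4013 to 4724, 3413 to 5173, 2425 to 3621, 865 to 1823, 1523 to 4463, 100 to 216 and 2861 to 3325 in the same order. Apart from fewer genes tested, the cause of these changes was not tested.

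Replicate numbers were shared by mESCs, EpiLCs and EpiSCs, but same-numbered libraries did not deviate together (r of 0.20, -0.20 and -0.13), so the numbers were not taken as pairs. With the replicate block 1 gene of the 7 was called between EpiSCs and EpiLCs, and Ifitm3 passed against mESCs in both, as it did with 3 groups without the block. Depth is unknown for FPKM values and methylation, so low levels near 0 cannot be given limits.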
